A study of Homo sapiens with 12 samples.

Results

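The genes described here are the repressor GFI1, its relative GFI1B and the corepressor genes of the LSD1-CoREST complex that GFI1 recruits: KDM1A, RCOR1, RCOR2, RCOR3, HDAC1, HDAC2, HMG20B and PHF21A. They were taken by gene symbol from the gene count table, as 10 of its 58735 genes. The RNA-Seq series compared A549, an established human lung adenocarcinoma cell line, without and with introduced GFI1. Control and GFI1-expressing cells were collected attached to the dish or floating, after 48 hours of forced suspension on ultra-low attachment plates, with 3 libraries in each of the 4 groups. The introduced GFI1 was a cDNA cloned from endothelial cells and driven by a PGK promoter from a lentivirus that also encoded GFP, and GFP-positive cells were sorted before sequencing. The labels do not say whether control cells carried an empty vector. They do not say either whether replicates came from separate cultures, so the p-values below measure only the spread between these libraries.

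GFI1 is a zinc-finger protein that binds DNA sites with an AATC core and represses the genes nearby, and in blood development it restrains stem cell and myeloid programmes. Its short N-terminal SNAG domain resembles the tail of histone H3 and docks into the active site of LSD1, the demethylase encoded by KDM1A, which strips methyl groups from lysine in the H3 tail at active genes. LSD1 works as part of a complex in which a CoREST scaffold protein, encoded by RCOR1, RCOR2 or RCOR3, joins it to the deacetylases HDAC1 and HDAC2, with HMG20B as a DNA-binding subunit and PHF21A as a reader of unmethylated H3.

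The promoter sequences of 5 of these genes are printed to show where AATC, the core of the GFI1 site, lies near the start of GFI1 itself, of the LSD1 gene and of 3 of the genes that rose with GFI1. Each is the RefSeq window (GRCh38.p14) of 250 bases before to 50 bases after the start site nearest the 5' end of the gene in the count table, written 5' to 3' on the gene's strand. Capitals mark AATC, or GATT where AATC lies on the opposite strand. The windows are chr1:92486876-92487175 on the minus strand for GFI1, chr1:23019218-23019517 on the plus strand for KDM1A, chr14:102592399-102592698 on the plus strand for RCOR1, chr1:211259116-211259415 on the plus strand for RCOR3 and chr11:46121405-46121704 on the minus strand for PHF21A.
GFI1: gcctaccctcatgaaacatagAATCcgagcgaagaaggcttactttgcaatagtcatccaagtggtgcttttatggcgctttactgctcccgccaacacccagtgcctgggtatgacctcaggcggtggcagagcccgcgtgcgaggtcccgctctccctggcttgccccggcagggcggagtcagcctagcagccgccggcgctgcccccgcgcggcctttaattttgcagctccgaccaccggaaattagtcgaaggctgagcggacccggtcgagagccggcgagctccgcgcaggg
KDM1A: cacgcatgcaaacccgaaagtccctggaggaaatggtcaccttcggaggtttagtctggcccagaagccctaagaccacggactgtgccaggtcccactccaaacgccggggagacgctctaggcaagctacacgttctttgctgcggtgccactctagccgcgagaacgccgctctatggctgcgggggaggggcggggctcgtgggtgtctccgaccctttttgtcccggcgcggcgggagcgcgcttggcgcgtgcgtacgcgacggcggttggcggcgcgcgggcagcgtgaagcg
RCOR1: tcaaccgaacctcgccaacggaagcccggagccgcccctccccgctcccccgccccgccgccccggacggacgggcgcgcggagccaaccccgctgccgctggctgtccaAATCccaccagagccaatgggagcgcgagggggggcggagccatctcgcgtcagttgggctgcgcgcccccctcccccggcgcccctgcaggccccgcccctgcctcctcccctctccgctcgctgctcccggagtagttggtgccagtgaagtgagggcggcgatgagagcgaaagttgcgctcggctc
RCOR3: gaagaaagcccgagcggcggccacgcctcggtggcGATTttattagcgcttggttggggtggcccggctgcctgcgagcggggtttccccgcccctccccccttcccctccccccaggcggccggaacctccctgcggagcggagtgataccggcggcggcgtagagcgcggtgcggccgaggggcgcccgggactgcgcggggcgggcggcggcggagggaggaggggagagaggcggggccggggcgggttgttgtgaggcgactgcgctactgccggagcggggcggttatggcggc
PHF21A: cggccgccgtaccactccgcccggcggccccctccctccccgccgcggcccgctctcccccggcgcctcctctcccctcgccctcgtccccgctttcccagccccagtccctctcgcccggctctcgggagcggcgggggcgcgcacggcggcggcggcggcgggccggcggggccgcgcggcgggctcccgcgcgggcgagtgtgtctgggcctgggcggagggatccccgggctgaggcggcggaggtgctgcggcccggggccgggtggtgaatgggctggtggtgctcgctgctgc

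Of the 10 genes, 9 had a promoter entry and RCOR2 had none. More than 1 window was listed for 4 genes, and the one nearest the 5' end in the count table was used. Its start site lay 40160 bases from that end for HDAC2, 1531 for GFI1B and 989 for RCOR3. AATC was present on either strand in the windows of 7 of the 9, beside 69.0% of all 35116 promoter windows of that length, and it was missing from those of KDM1A and PHF21A. The longer form AAATCNC, which contains AATC, was present in the windows of RCOR1 and RCOR3 and in 10.9% of all windows. The other listed RCOR3 window did not hold it. The form AATCAC was present in none of the 9 and in 10.2% of all windows. In the GFI1 window the single match began 229 bases before the start site. These are matches of letters only, and no binding was measured in these libraries.

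Libraries held between 17014188 and 20748677 counts, and 17829 genes passed the filter on low counts and were tested. The mean chi-square per gene between replicates, which is 1 for counting noise alone, was 4.40 to 10.5 in the floating GFI1 group and 1.93 to 3.45 in the other groups, so that no replicate pair was within sampling noise. All 6 epithelial markers (EPCAM, CDH1, KRT7, KRT8, KRT18, KRT19) were counted in every library. Their summed level was 10386 to 10986 CPM (counts scaled for library size with TMM factors) in attached control cells, 4222 to 4339 in attached GFI1 cells, 6529 to 6938 in floating control cells and 3039 to 3411 in floating GFI1 cells. Most of this sum was KRT7, KRT8 and KRT18, so it hides the other markers. CDH1 was at 118 to 122 CPM in attached control and 5.77 to 7.11 CPM in attached GFI1 cells. KRT19 went the other way, from 0.746 to 1.47 CPM in attached control to 1.63 to 2.17 CPM in attached GFI1 cells. EPCAM had at most 45 counts in any library. Summed levels of 10 blood cell markers were 5.35 to 15.05 CPM over all libraries, most of it CD14, with CD3E at 0 in all 12 and PTPRC at no more than 1 count. Those of 6 fibroblast markers were 7.78 to 15.5 CPM, with DCN at 0 in all 12 libraries. This sum hides markers that moved apart. COL1A1 was at 12.1 to 13.9 CPM in attached control and 5.91 to 6.87 CPM in attached GFI1 cells. PDGFRB went the other way, from 0.0574 to 0.179 CPM in attached control to 1.80 to 2.50 CPM in attached GFI1 cells. COL3A1 was at 0.655 to 1.55 and 1.52 to 1.66 CPM in these groups, which overlapped. The 5 endothelial markers summed to 0.163 to 0.722 CPM in control and 3.65 to 5.62 CPM in GFI1 libraries, where CDH5 and VWF were counted in every library and KDR was at 0. The part of these marker differences in the results below was not tested.

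On the TMM scale, introduced GFI1 went with higher levels of the 3 CoREST scaffold genes and PHF21A and lower levels of KDM1A and HDAC2, in attached and in floating cells alike. Differences were tested with the quasi-likelihood method of edgeR, with Benjamini-Hochberg adjusted p over all tested genes and a threshold of 0.05, and 6 of the 8 tested corepressor genes differed between attached GFI1 and attached control cells, 4 higher and 2 lower. The introduced GFI1, whose rise was fixed by the design, made this 7 of 9. The background was large: 62.3% of all tested genes passed in that comparison, 29.5% higher and 32.8% lower. In floating cells all 8 corepressor genes passed, 4 higher and 4 lower (9 of 9 with GFI1), beside 60.4% of all genes, 29.3% higher and 31.1% lower. The median log2 fold change of the 8 genes was 0.21 in attached and 0.15 in floating cells (0.42 and 0.46 with GFI1 among them), against -0.01 and 0.01 over all tested genes. CPM of the GFI1 and control libraries did not overlap for 6 of the 8 genes in attached cells, beside 67% of all genes, and for 8 of 8 in floating cells, beside 64.4%. When a fold change of at least 2 was required as well, 0 of the 8 genes passed in either state, so the settings named below for single genes are those with the adjusted p alone. Both comparisons were made relative to the TMM scale. With library size alone as the scale, the median of all genes moved to 0.14 in attached and in floating cells, and 61.5% and 61.4% of the calls were then higher, against 47.4% and 48.5% on the TMM scale. The falls of HDAC2 in both states and of KDM1A in floating cells then lost their calls, and that of KDM1A in attached cells kept it.

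**Figure D1:**
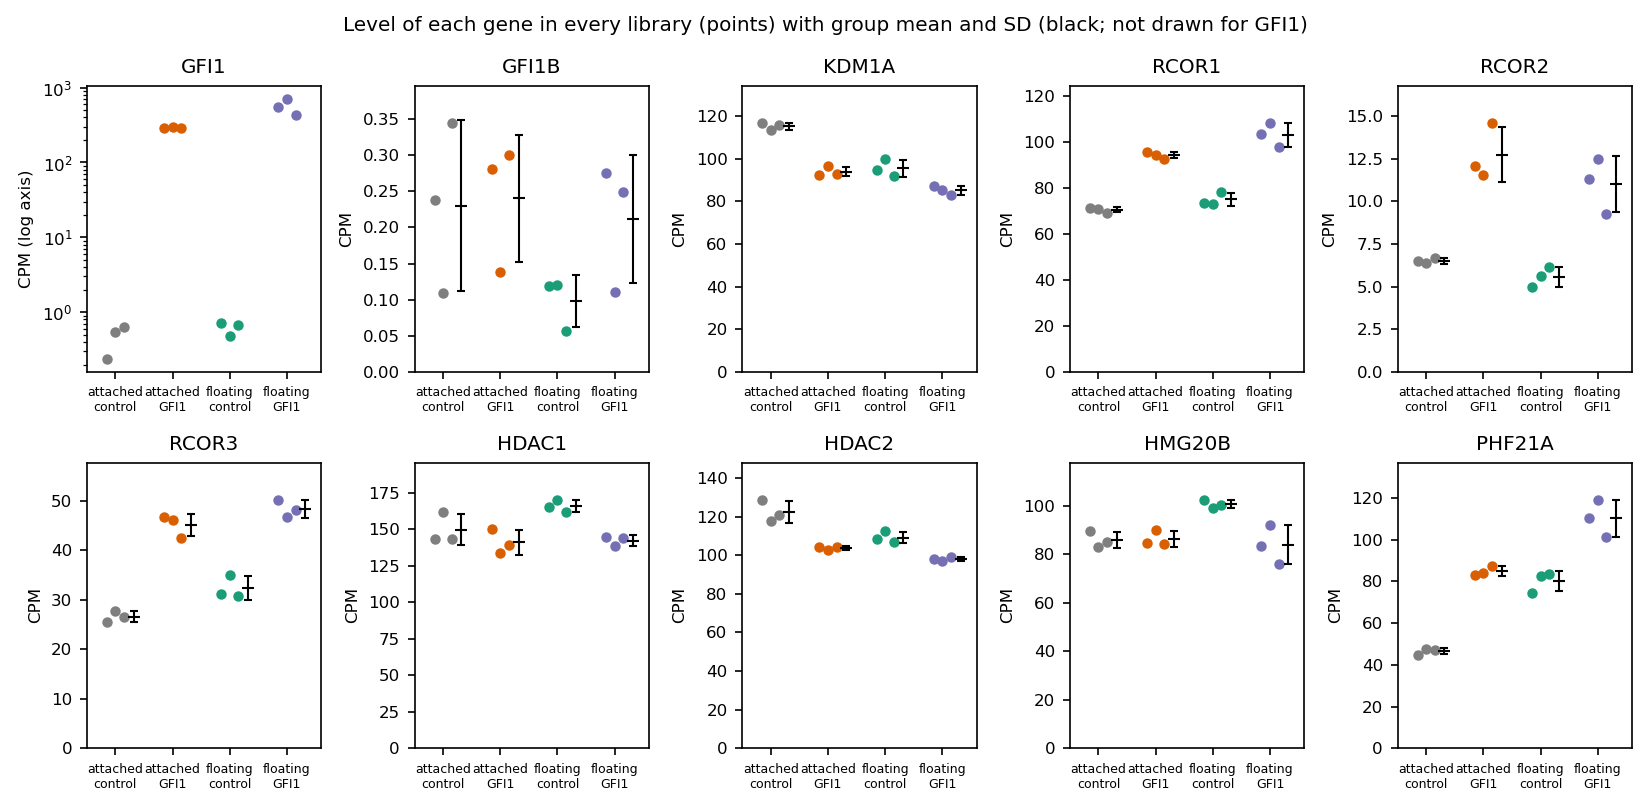
Level of each of the 10 genes in CPM (vertical axes, logarithmic for GFI1 and linear from 0 for the others) in the 12 libraries, 3 points per group, with the mean and SD of the group in black except for GFI1. GFI1 was at 0.238 to 0.711 CPM in control and 286 to 706 CPM in GFI1 libraries, while GFI1B stayed below 0.35 CPM throughout.

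GFI1 (chr1:92474762-92486876, minus strand), the introduced factor, was counted only a few times in cells without the construct. It was at 0.238, 0.543 and 0.631 CPM in the attached control libraries (4, 10 and 11 counts) and at 0.711, 0.482 and 0.680 CPM in the floating control libraries (12, 8 and 12 counts). With the construct it reached 290, 294 and 286 CPM in attached and 545, 706 and 430 CPM in floating cells. All 6 GFI1 libraries lay far above all 6 control libraries, which checks the labels. The log2 difference was 9.23 ± 0.21 (SE, n = 3) in attached cells and 9.79 ± 0.20 in floating cells, with adjusted p of 3.68e-22 and 2.61e-23 by edgeR. Counts per gene do not separate the transcript of the construct from that of the cell's own gene.

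GFI1 itself rose in suspension within the GFI1-expressing cells. All 3 floating GFI1 libraries were above all 3 attached ones, by 0.95 ± 0.10 on the log2 scale or 1.93-fold, with an adjusted p of 2.38e-08 by edgeR. The floating libraries also differed far more among themselves (SD of 138 CPM) than the attached ones (SD of 4.40 CPM). It was lost where a fold change of at least 2 was required as well, and it kept its adjusted p past the threshold with any library left out and in the other settings run for it, between 0.73 and 1.11. In control cells the difference was 0.39 ± 0.70 with overlapping groups and an adjusted p of 0.703, and the difference between both suspension effects was 0.56 ± 0.73, with 4 to 12 counts in each control library. In these bulk libraries, more cells with the construct and more transcript per cell cannot be told apart.

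GFI1B (chr9:132944000-132991687, plus strand), the relative of GFI1 that acts in red cell and platelet precursors, had 1 to 6 counts in each library. It had 4, 2 and 6 counts in attached control, 5, 3 and 6 in attached GFI1, 2, 2 and 1 in floating control and 5, 2 and 5 in floating GFI1 cells. It failed the filter on low counts, and in a fit without the filter its lowest adjusted p over the 5 comparisons was 0.436. No difference in GFI1B was therefore detected, and at these counts a small one could be missed. Its locus overlaps TSC1 on the opposite strand, which had 731 to 1388 counts, and the strand setting of the counting was not stated.

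KDM1A (chr1:23019443-23083689, plus strand), which encodes the demethylase LSD1 itself, was lower with GFI1. It was at 117, 113 and 116 CPM in attached control and at 92.3, 96.6 and 93.0 CPM in attached GFI1 cells. In floating cells it was at 94.9, 99.7 and 91.7 CPM without and at 87.3, 85.1 and 83.1 CPM with GFI1. The groups did not overlap in either state, and the attached control libraries were above those of all 3 other groups. The change with GFI1 was -0.29 ± 0.04 on the log2 scale in attached cells and -0.16 ± 0.04 in floating cells, with adjusted p of 1.85e-06 and 0.00233 by edgeR. The attached change, a drop to 0.816 of the control level, kept its call in each of 21 other settings without a required fold change, between -0.32 and -0.15. The floating change lost it with library size alone as the scale (-0.04, adjusted p = 0.501 by edgeR).

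With suspension KDM1A fell by 0.27 ± 0.04 in control cells, with an adjusted p of 1.50e-05 by edgeR, and it fell by 0.14 ± 0.04 in GFI1 cells, with an adjusted p of 0.0141. The second of these lost its call without attached GFI1 replicate 2 (-0.12, adjusted p = 0.0852 by edgeR), without floating GFI1 replicate 3 (-0.13, adjusted p = 0.0504) and with no filter on low counts (-0.14, adjusted p = 0.0644). Starting from the attached control cells, GFI1 alone and suspension alone thus went with KDM1A levels of 94.0 ± 2.28 and 95.5 ± 4.04 CPM (SD, n = 3), and both together with 85.2 ± 2.10 CPM. The difference between the GFI1 effects in floating and attached cells was 0.13 ± 0.06, with a 95% interval from 0.00 to 0.26 and an adjusted p of 0.213 by edgeR.

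The 3 CoREST scaffold genes all rose with GFI1. RCOR1 (chr14:102592661-102730576, plus strand), the founding member whose product bridges LSD1 to the deacetylases, was at 71.3, 70.7 and 69.2 CPM in attached control and 95.4, 94.4 and 92.7 CPM in attached GFI1 cells. In floating cells it was at 73.6, 73.1 and 78.2 CPM without and 104, 108 and 97.5 CPM with GFI1. All GFI1 libraries were above all control libraries. RCOR1 rose by 0.42 ± 0.05 when attached and by 0.46 ± 0.05 when floating, with adjusted p of 1.94e-08 and 3.83e-09 by edgeR, and the difference between the changes was 0.04 ± 0.07 (95% interval -0.10 to 0.17).

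RCOR2 (chr11:63911221-63916844, minus strand), a paralog best known from stem cells and the developing brain, was the lowest of the 3 genes and the one with the largest fold change. It was at 6.49, 6.35 and 6.66 CPM in attached control and 12.1, 11.5 and 14.6 CPM in attached GFI1 cells. Floating cells had 4.98, 5.60 and 6.12 CPM without and 11.3, 12.5 and 9.25 CPM with GFI1. The lowest GFI1 library was still above the highest control library. The change was 0.97 ± 0.12, or 1.96-fold, in attached cells and 0.98 ± 0.13, or 1.97-fold, in floating cells, with adjusted p of 2.06e-07 and 4.17e-07 by edgeR.

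RCOR3 (chr1:211258377-211316385, plus strand), the third paralog, was at 25.6, 27.9 and 26.5 CPM in attached control and 46.8, 46.1 and 42.5 CPM in attached GFI1 cells. Floating cells had 31.2, 35.1 and 30.9 CPM without and 50.2, 46.8 and 48.1 CPM with GFI1. Its groups did not overlap between GFI1 and control cells in either state, with changes of 0.76 ± 0.06 in attached and 0.58 ± 0.06 in floating cells and adjusted p of 9.35e-11 and 9.47e-09 by edgeR. Each of the 6 changes of the scaffold genes with GFI1 stayed past the threshold of adjusted p in each of 21 other settings, and none met a required fold change of 2.

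Suspension moved the scaffold genes less. RCOR3 rose by 0.28 ± 0.07 in floating control cells, with an adjusted p of 0.00122 by edgeR, and RCOR1 by 0.13 ± 0.05 in floating GFI1 cells, with an adjusted p of 0.0293. The RCOR1 call was lost in 7 of 21 other settings, among them DESeq2 (adjusted p = 0.0542) and leaving out floating GFI1 replicate 2 (0.08, adjusted p = 0.249 by edgeR). The other 4 suspension values of the scaffold genes, from -0.22 to 0.10, did not pass. Of these, RCOR2 in suspended GFI1 cells passed without floating GFI1 replicate 2 (-0.33, adjusted p = 0.0451 by edgeR).

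Levels of different genes can be set side by side only per length, and here CPM were divided by the gene length in the count table (CPM per kilobase). On this scale RCOR1 made up 68.2% ± 0.684 (SD, n = 3) of the sum of RCOR1 to RCOR3 in attached control cells and 61.2% ± 1.16 in attached GFI1 cells. RCOR2 went from 14.3% ± 0.461 to 18.7% ± 2.26 and RCOR3 from 17.6% ± 0.692 to 20.0% ± 1.11. RCOR1 thus remained the most abundant of the 3 transcripts in each group, with a smaller share in attached GFI1 cells. In floating cells the RCOR1 share was 68.4% ± 1.51 without and 64.0% ± 0.579 with GFI1. With the length of the MANE Select transcript in place of the table's gene length, an alternative chosen after seeing the data, RCOR3 had a larger share, 29.1% ± 0.984 in attached control and 32.7% ± 1.46 in attached GFI1 cells. RCOR1 was then at 59.9% ± 0.876 and 53.1% ± 0.431, and RCOR2 at 10.9% ± 0.382 and 14.2% ± 1.88.

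The sum of the 3 scaffold transcripts per KDM1A transcript separated all 4 groups. Per kilobase it was 0.786 ± 0.0169 (SD, n = 3) in attached control, 1.01 ± 0.0632 in floating control, 1.44 ± 0.0484 in attached GFI1 and 1.66 ± 0.0686 in floating GFI1 cells, and no group overlapped another. With MANE Select lengths the ratios were 0.547, 0.718, 1.01 and 1.18 in the same order. The order of the groups was kept while the absolute ratios fell, since the table's length of KDM1A is 5440 bases and that of its MANE Select transcript 3085. An exact two-sided permutation test of 3 libraries against 3 cannot go below p = 0.1, so these ratios are given without a test.

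**Figure D2:**
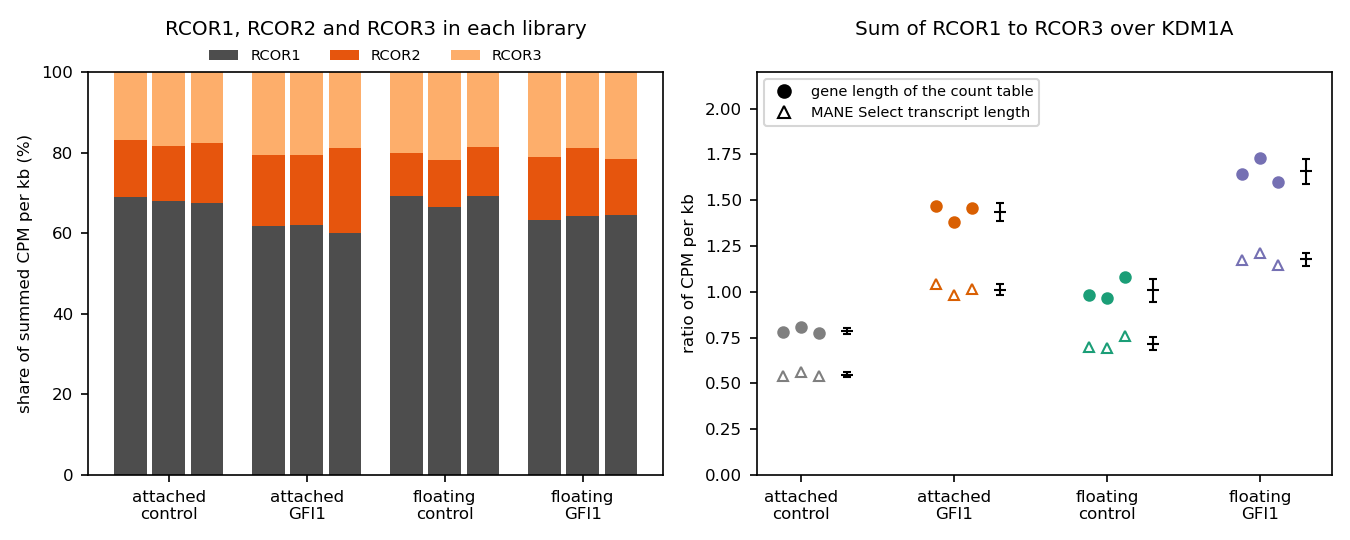
Left, share of RCOR1, RCOR2 and RCOR3 in their summed CPM per kilobase (percent, stacked bars from 0, one bar per library); right, ratio of that sum to KDM1A per kilobase with the gene length of the count table (filled circles) or the MANE Select transcript length (open triangles), with group mean and SD in black. The ratio was 0.786 in attached control and 1.66 in floating GFI1 cells with the table's length.

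HDAC1 (chr1:32292086-32333635, plus strand) and HDAC2 (chr6:113933028-114011308, minus strand) encode the catalytic deacetylases that the complex shares with the NuRD and SIN3 complexes. HDAC2 was at 129, 118 and 121 CPM in attached control, 104, 103 and 104 CPM in attached GFI1, 108, 112 and 107 CPM in floating control and 98.2, 96.9 and 99.3 CPM in floating GFI1 cells. It was lower with GFI1 in both states without overlap, by -0.24 ± 0.04 and -0.15 ± 0.04 on the log2 scale, with adjusted p of 2.96e-05 and 0.00356 by edgeR. Both calls were lost with library size alone as the scale, where the values were -0.09 and -0.02. Suspension lowered HDAC2 in control cells (-0.16 ± 0.04, adjusted p = 0.00323 by edgeR).

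HDAC1 was at 143, 162 and 144 CPM in attached control and 150, 134 and 139 CPM in attached GFI1 cells, which overlapped. The difference was -0.09 ± 0.05 (adjusted p = 0.139 by edgeR), and it passed the threshold without attached GFI1 replicate 1 (-0.13, adjusted p = 0.0420) and turned to 0.06 with library size alone as the scale. In floating cells it was at 165, 170 and 162 CPM without and 145, 138 and 144 CPM with GFI1, without overlap and with a change of -0.22 ± 0.05 (adjusted p = 0.000521 by edgeR). That call was lost with library size alone (-0.09, adjusted p = 0.121). HDAC1 also rose in suspension in control cells by 0.15 ± 0.05 (adjusted p = 0.0216 by edgeR), although the CPM of these groups overlapped. Leaving out attached control replicate 1 or 3 or floating control replicate 1 or 2 ended this call, with values from 0.11 to 0.15.

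HMG20B (chr19:3572777-3579088, plus strand) carries an HMG box and contacts DNA within the complex. It was at 89.6, 83.2 and 84.9 CPM in attached control and 84.6, 90.1 and 84.2 CPM in attached GFI1 cells, which overlapped, with a log2 difference of 0.01 ± 0.05 (95% interval -0.11 to 0.12). With library size alone as the scale this difference passed (0.15, adjusted p = 0.0137 by edgeR). Floating control cells, at 103, 99.3 and 100 CPM, were above the 3 other groups, and floating GFI1 cells were at 83.7, 92.2 and 76.2 CPM. HMG20B therefore differed with GFI1 in floating cells (-0.26 ± 0.05, adjusted p = 0.000186 by edgeR) and with suspension in control cells (0.23 ± 0.05, adjusted p = 0.0014). In suspended against attached GFI1 cells the value was -0.04 ± 0.05 with overlap.

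PHF21A (chr11:45929323-46121178, minus strand) encodes the subunit whose PHD finger reads unmethylated H3, the product of LSD1. It was at 44.8, 47.8 and 47.1 CPM in attached control and 82.9, 84.0 and 87.4 CPM in attached GFI1 cells. It was at 74.5, 82.5 and 83.6 CPM in floating control and 110, 119 and 101 CPM in floating GFI1 cells. It rose with GFI1 and with suspension, and each of the 4 pairs of groups was separated without overlap. The changes with GFI1 were 0.86 ± 0.06 (1.82-fold) in attached and 0.46 ± 0.06 (1.37-fold) in floating cells, with adjusted p of 1.84e-12 and 8.28e-08 by edgeR. Those with suspension were 0.78 ± 0.06 (1.72-fold) in control and 0.38 ± 0.05 (1.30-fold) in GFI1 cells, with adjusted p of 7.66e-11 and 5.62e-06.

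The test of whether the GFI1 effect differed between floating and attached cells passed for 2 of the 9 genes, PHF21A and HMG20B, both lower than the sum of the separate effects, beside 10.8% of all tested genes, 4.76% higher and 6.01% lower. The median of this difference was -0.06 over the 8 corepressor genes and -0.00 over all genes. For PHF21A it was -0.41 ± 0.08 (95% interval -0.57 to -0.24, adjusted p = 0.00111 by edgeR), and it held in each of 20 other settings, from -0.48 to -0.35, but not with a required fold change of 2. For HMG20B it was -0.27 ± 0.08 (95% interval -0.43 to -0.11, adjusted p = 0.0237 by edgeR). The HMG20B call was lost when attached control replicate 2 or 3, attached GFI1 replicate 2, floating control replicate 1 or floating GFI1 replicate 3 was left out, with values from -0.26 to -0.20 and adjusted p from 0.0594 to 0.0826. HMG20B overlaps MFSD12 on the opposite strand, which had 1090 to 2504 counts. MFSD12 rose with GFI1 by 0.76 ± 0.05 in attached and 0.77 ± 0.06 in floating cells, and its own difference between the GFI1 effects was 0.01 ± 0.08, while the share of its reads in the HMG20B counts was not tested.

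**Figure D3:**
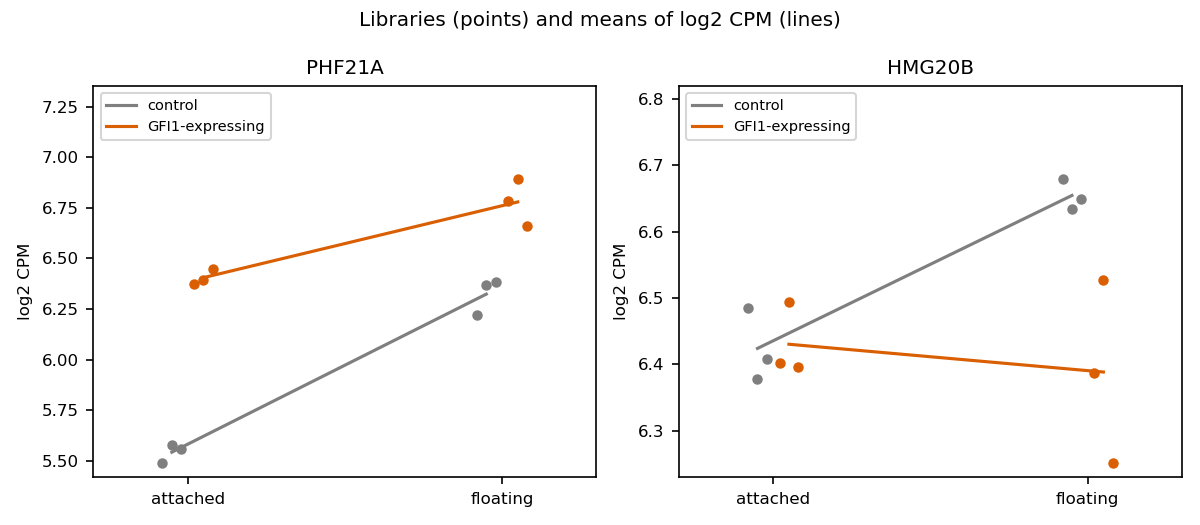
Level of PHF21A and HMG20B (log2 CPM, vertical axes that do not start at 0) in attached and floating cells, with 1 point per library and lines joining the means of control (grey) and GFI1-expressing (orange) libraries. PHF21A rose in suspension by 0.78 in control and 0.38 in GFI1 cells, and the HMG20B points of floating control cells lie above those of the other groups.

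With suspension as the comparison, 6 of the 9 tested genes passed in control cells, 4 higher (RCOR3, HDAC1, HMG20B, PHF21A) and 2 lower (KDM1A, HDAC2), beside 40.1% of all genes, 19.6% higher and 20.5% lower. In GFI1 cells 4 passed, 3 higher (GFI1, RCOR1, PHF21A) and KDM1A lower, beside 31.3% of all genes, 15% higher and 16.3% lower. Groups did not overlap for 7 and 5 of the 9 genes, beside 49.9% and 41.4% of all genes. Medians over the 8 corepressor genes were 0.12 and -0.01, against 0.01 and 0.00 over all tested genes. PHF21A and KDM1A passed in both, with PHF21A higher and KDM1A lower in floating cells each time. Control and GFI1 comparisons share libraries with the interaction test above.

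**Figure D4:**
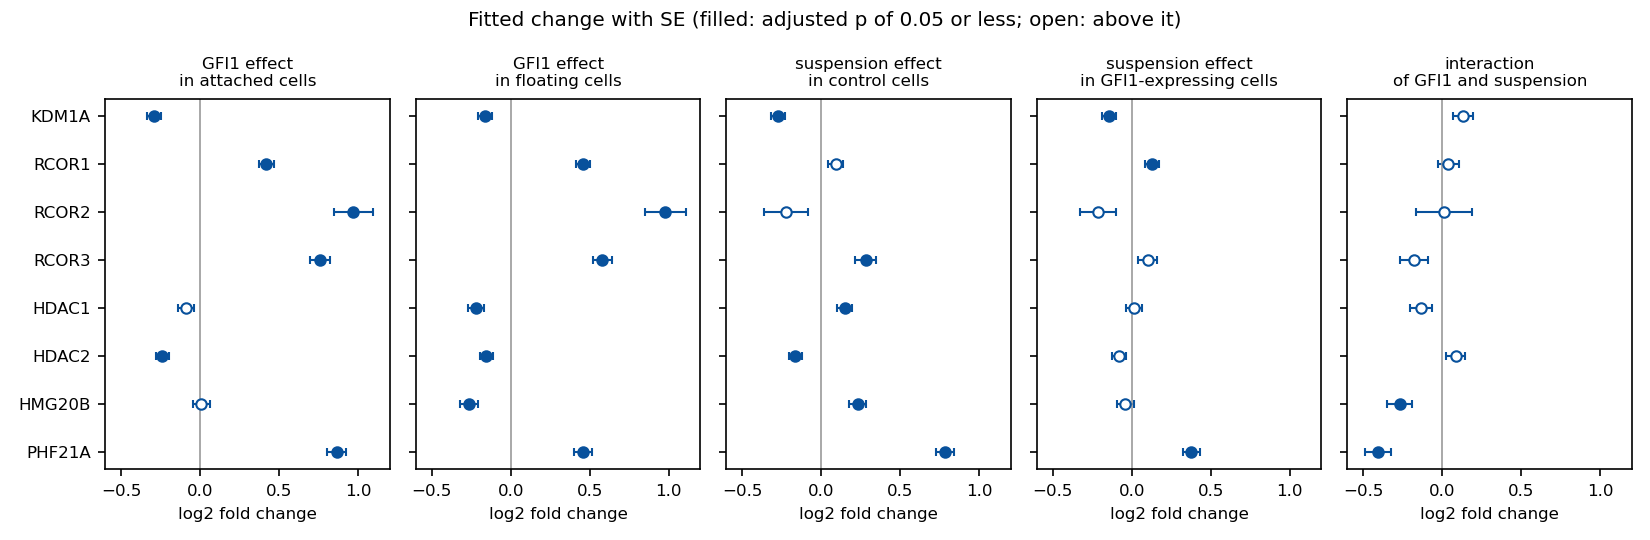
Log2 fold change with SE (horizontal axes) of the 8 tested corepressor genes in the 4 comparisons of groups and in the interaction of GFI1 and suspension, filled where the adjusted p was 0.05 or less. RCOR1, RCOR2, RCOR3 and PHF21A lie to the right of 0 and KDM1A and HDAC2 to the left in both GFI1 comparisons, and PHF21A and HMG20B are filled in the interaction.

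Per kilobase of the table's gene length, HDAC1 was the most abundant of the 10 transcripts in control cells, at 37.8 ± 2.71 CPM per kilobase (SD, n = 3) in attached and 41.8 ± 1.05 in floating cells. HMG20B (22.3 ± 0.853 and 26.1 ± 0.425), KDM1A (21.2 ± 0.313 and 17.5 ± 0.743) and RCOR1 (11.4 ± 0.181 and 12.1 ± 0.452) followed in both states. GFI1 ranked just above GFI1B at the bottom, at 0.143 ± 0.0625 and 0.189 ± 0.0377. In GFI1 cells it was first, at 87.9 ± 1.33 in attached and 170 ± 41.9 in floating cells, which was 5.09 ± 0.0825 and 10.8 ± 2.60 times the KDM1A level. With MANE Select lengths these ratios were 2.09 and 4.45, so that GFI1 per kilobase exceeded KDM1A in the 6 GFI1 libraries under both lengths. In attached GFI1 cells the mean of HDAC1 (MANE Select length of 2118 bases) was then above that of GFI1. The first place of GFI1 there thus holds for the table's lengths only. The introduced GFI1 was a cDNA in a lentivirus. Its transcript need not have the table's length of GFI1 (3301 bases) or the MANE Select length (4554 bases). These values are therefore not ratios of transcript numbers.

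Most neighbours in this order were separated in each group. Those that overlapped were RCOR3 (4.96 ± 0.252 CPM per kilobase) and RCOR2 (4.65 ± 0.592) in attached GFI1 cells, PHF21A (7.17 ± 0.443) and HDAC2 (7.06 ± 0.181) in floating control cells, and RCOR1 (16.6 ± 0.852) and KDM1A (15.7 ± 0.385) in floating GFI1 cells. The place of PHF21A therefore changed with the group: it was below HDAC2 in attached control cells, at 4.16 ± 0.138 against 7.92 ± 0.372, and above it in both GFI1 groups. HDAC1 exceeded HDAC2 by 4.79 to 5.92 times in the group means, and by 5.64 to 6.98 times with MANE Select lengths. The order and the overlaps above hold for the table's gene lengths only, since other lengths shift the genes unequally. KDM1A has 5440 bases in the table, 3085 in its MANE Select transcript and 18325 in all exons of the GENCODE v44 annotation. For RCOR3 these lengths are 9092, 4474 and 9092 bases, and for PHF21A 11190, 7451 and 25046.

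Among 11885 other protein-coding genes, the 5 whose log2 CPM followed GFI1 most closely over the 12 libraries were OSR1, DMXL2, NADK, NAV1 and PHF12, with Pearson's r from 0.997 to 0.999 and Spearman's rho from 0.867 to 0.993. GFI1 levels fall into separate control and GFI1 sets, so these values mostly reflect the distance between the sets. Within the 6 GFI1 libraries r was 0.958 for OSR1, a zinc-finger transcription factor, and 0.823 to 0.876 for the 4 others. These 6 libraries are an attached and a floating set whose GFI1 levels did not overlap, so this r reflects that distance too. Within the 6 control libraries, where GFI1 had few counts, r was 0.949 for OSR1 and 0.498 (PHF12) to 0.893 (DMXL2) for the 4 others. OSR1 was at 7.45 ± 0.876 CPM in attached control, 64.7 ± 1.06 in attached GFI1, 8.32 ± 0.927 in floating control and 74.3 ± 7.04 in floating GFI1 cells. NAV1, which encodes a cytoskeleton-associated protein, went from 40.6 ± 2.42 to 414 ± 8.88 CPM in attached cells.

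The genes most like KDM1A were BRIX1 and MAK16, which act in ribosome assembly, RBMX, which encodes an RNA-binding protein, PTGES2, a prostaglandin synthase gene, and SMC3, a cohesin gene, with r from 0.979 to 0.990. BRIX1 followed the KDM1A order of groups, at 47.7 ± 0.519 CPM in attached control, 36.1 ± 2.11 in floating control, 33.3 ± 1.34 in attached GFI1 and 29.3 ± 0.843 in floating GFI1 cells. Its r was 0.997 within the 6 control and 0.978 within the 6 GFI1 libraries. The points share library and depth, and no test was made.

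Among 8 further genes tied to the complex as subunits, partners or paralogs (CTBP1, CTBP2, GSE1, KDM1B, RREB1, ZMYM2, ZMYM3, ZNF217), more passed as higher than as lower with GFI1. In attached cells 5 were higher and 2 lower, with a median of 0.21, beside 29.5% of all tested genes higher and 32.8% lower. In floating cells 6 were higher and 2 lower, with a median of 0.23, beside 29.3% and 31.1% of all tested genes. GSE1, a coiled-coil protein found with the complex, went from 198 ± 7.32 CPM (SD, n = 3) to 326 ± 1.12 CPM in attached cells (0.72 ± 0.04, adjusted p = 1.23e-13 by edgeR). ZMYM3, a zinc-finger subunit, rose by 0.59 ± 0.04 in floating cells (adjusted p = 3.13e-12). ZNF217, a zinc-finger DNA-binding partner of CoREST and CtBP, fell by 0.26 ± 0.05 in attached and by 0.55 ± 0.05 in floating cells, from 126 ± 3.01 to 86.3 ± 6.10 CPM in the latter. The attached ZNF217 call was lost with library size alone as the scale (-0.11, adjusted p = 0.0574 by edgeR).

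Suspension changed 4 of these 8 genes in control cells, 2 higher and 2 lower, beside 40.1% of all genes, and 3 in GFI1 cells, 1 higher and 2 lower, beside 31.3% of all genes. The control call of CTBP1 was lost in 8 of 21 other settings. ZNF217 rose in control cells by 0.28 ± 0.05 (adjusted p = 4.71e-05 by edgeR) and ZMYM2, a SUMO-binding zinc-finger subunit, in GFI1 cells by 0.18 ± 0.05 (adjusted p = 0.00819). KDM1B, the paralog of KDM1A, fell by 0.35 ± 0.08 in both. The GFI1 effect differed between floating and attached cells for ZNF217 (-0.29 ± 0.07, adjusted p = 0.00607 by edgeR) and for CTBP1, which encodes the corepressor CtBP1 (0.19 ± 0.06, adjusted p = 0.0462). The CTBP1 call was lost in 16 of 20 other settings, among them DESeq2, 3 other ways of scaling the libraries, the fit with the replicate number as a block (adjusted p = 0.0543 by edgeR) and 10 of the 12 fits without 1 library. ZMYM2 in suspended GFI1 cells lost its call without floating GFI1 replicate 1 (0.14, adjusted p = 0.0684 by edgeR).

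Of 15 genes listed as cofactors or partners of GFI1 outside the complex, 14 were tested, and 6 were higher and 4 lower with GFI1 in attached cells. In floating cells 7 were higher and 4 lower, and the medians were 0.06 and 0.16. The calls made up 71.4% and 78.6% of the 14, beside 62.3% and 60.4% of all tested genes. PIAS3, a SUMO ligase gene, went from 46.0 ± 2.53 to 73.6 ± 3.40 CPM in attached cells (0.68 ± 0.05, adjusted p = 4.67e-11 by edgeR). RUNX1, a transcription factor of blood development that the study describes as an activator of GFI1, rose in floating cells from 33.0 ± 1.75 to 64.5 ± 7.04 CPM (0.97 ± 0.07, adjusted p = 4.69e-12). PRMT1, an arginine methyltransferase that GFI1 recruits to DNA repair proteins, fell from 387 ± 8.86 to 217 ± 11.9 CPM in attached cells (-0.83 ± 0.04, adjusted p = 8.34e-15). In floating cells it was -0.80 ± 0.04.

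For 25 other subunit genes of the deacetylase complexes NuRD and SIN3, which share HDAC1 and HDAC2, calls went in both directions. In attached GFI1 cells 9 were higher and 10 lower, 76% of the 25 beside 62.3% of all tested genes. In floating GFI1 cells 9 were higher and 6 lower, 60% beside 60.4% of all tested genes. Medians were -0.09 and -0.02. CHD3, a NuRD remodeller, went from 279 ± 5.73 to 138 ± 4.91 CPM in attached cells (-1.01 ± 0.04, adjusted p = 2.29e-16 by edgeR). ARID4B, a SIN3 subunit, rose by 0.52 ± 0.05 in attached cells (adjusted p = 2.18e-09), and GATAD2B, a NuRD subunit, by 0.70 ± 0.06 in floating cells (adjusted p = 2.86e-10).

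Among 9 other histone deacetylase genes, 3 were higher and 3 lower with GFI1 in each state, with medians of 0.05 and -0.02. These calls made up 66.7% of the 9 in each state, beside 62.3% and 60.4% of all tested genes. HDAC5, a class II deacetylase gene, rose from 20.0 ± 0.987 to 91.1 ± 4.28 CPM in attached cells (2.19 ± 0.06, adjusted p = 3.42e-20 by edgeR) and by 1.78 ± 0.06 in floating cells. HDAC7, of the same class, fell from 93.2 ± 4.26 to 57.8 ± 1.79 CPM in attached cells (-0.69 ± 0.05, adjusted p = 1.87e-12). HDAC11 fell by 1.40 ± 0.12 in floating cells (adjusted p = 2.08e-10). Of 7 other genes for SNAG-domain proteins, which dock into LSD1 as GFI1 does, 3 passed the filter on low counts. SNAI1 rose from 2.95 ± 0.769 to 10.9 ± 0.627 CPM in attached cells (1.89 ± 0.15, adjusted p = 3.47e-11 by edgeR) and by 2.58 ± 0.16 in floating cells. SNAI2 fell from 1.25 ± 0.331 to 0.183 ± 0.166 CPM in attached cells (-2.72 ± 0.49, adjusted p = 3.39e-05 by edgeR). It was near the floor, with 16 to 28 counts in each attached control and 0 to 7 in each attached GFI1 library.

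Genes that GFI1 is known to repress in blood cells moved in both directions. Of 16 such genes, 12 were tested, and 6 were higher and 6 lower in attached, 4 higher and 5 lower in floating GFI1 cells, with medians of -0.07 and -0.03. ETS1, a transcription factor gene, went from 30.3 ± 2.38 to 9.88 ± 0.313 CPM in attached cells (-1.62 ± 0.08, adjusted p = 7.14e-15 by edgeR). ID2, which encodes an inhibitor of helix-loop-helix transcription factors, went from 58.1 ± 5.84 to 11.7 ± 0.848 CPM in floating cells (-2.32 ± 0.08, adjusted p = 2.17e-18) and changed by -1.12 ± 0.08 in attached cells. CSF1, which encodes a myeloid growth factor, went the other way, from 60.3 ± 3.46 to 119 ± 1.51 CPM in attached cells (0.99 ± 0.06, adjusted p = 8.22e-14). EGR1, an immediate early gene, rose from 10.5 ± 2.48 to 37.1 ± 7.12 CPM in floating cells (1.83 ± 0.15, adjusted p = 4.43e-11). These lists were described by their counts and medians, to be read beside the 62.3% and 60.4% of all tested genes that passed.

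**Figure D5:**
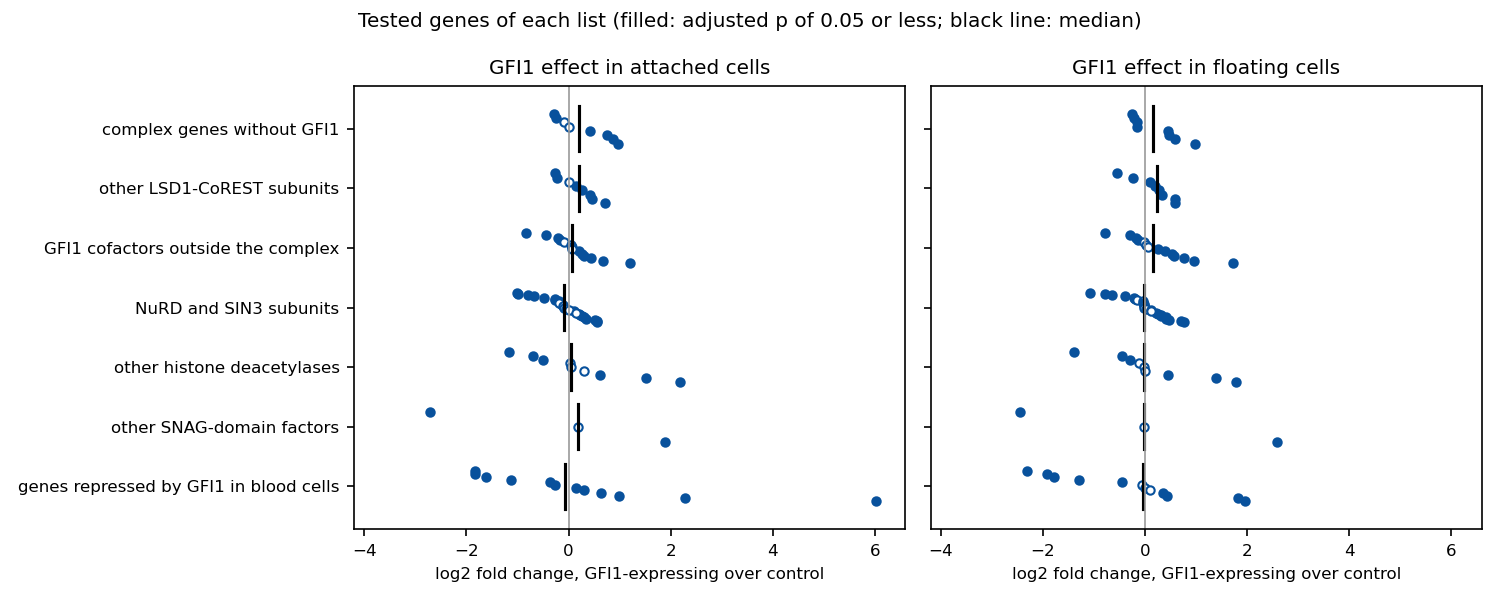
Log2 fold change of GFI1-expressing over control cells (horizontal axes) for the tested genes of 7 lists, 1 point per gene, filled where the adjusted p was 0.05 or less, with the median of the list as a black line. The medians of the genes tied to the LSD1-CoREST complex lie at 0.21 and 0.23, and those of the genes repressed by GFI1 in blood cells, which spread widely to both sides of 0, at -0.07 and -0.03.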

How the data were processed

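Poly-A RNA libraries of A549 cells (12 in all) were sequenced on an Illumina system. The deposited values are raw counts per gene, made by the authors from reads aligned to the human genome (hg38). The study's methods name Hisat2 and featureCounts, while the processing notes of the submitters name Bowtie2 and HTSeq, and which of them made the deposited counts was not settled. Strand setting and annotation release were not given in the sources used here. Groups and replicate numbers came from the sample labels.

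The fit used edgeR 4.0.16 (R 4.3.3). The filter filterByExpr (at least 10 counts, 15 in total) left 17829 genes and libraries were scaled by TMM. The quasi-likelihood model had the means of the 4 groups as its terms over all 12 libraries, and p-values were adjusted by Benjamini-Hochberg within each comparison. SE are those of the fitted log2 fold change. The code was tested on simulated counts. Named genes were the 10 described genes, from each list the higher and the lower gene of lowest adjusted p in the 2 GFI1 comparisons (for the complex list in all 5), and the 5 genes most correlated with GFI1 and with KDM1A at a mean log2 CPM of at least 1. The described genes and the lists were chosen with earlier results of these data known, and 2 genes of the lists are not reported here and enter no list count. Alternatives were DESeq2 1.42.0, RLE, upper quartile and library size scaling, no filter, a minimum of 10 counts in each library, robust empirical Bayes estimation, a fit to the compared groups alone, a replicate block, a required fold change of 2, and leaving out each library in turn.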

Additional observations from a re-analysis of the deposited data

Results flagged for a closer look

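For 10 of the named genes, the GFI1 effect in floating cells differed from that in attached cells by edgeR's test of the difference itself (adjusted p of 0.05 or less). Over all tested genes, 10.8% passed this test. List genes were named for a low adjusted p in the GFI1 comparisons, whose values enter this test. For the genes tied to the complex, this test was itself used for naming. The number of named genes that passed is therefore no measure of how common such differences are. The log2 difference, floating minus attached, was -0.41 for PHF21A and -0.27 for HMG20B, and for the genes tied to the complex it was -0.29 for ZNF217 and 0.19 for CTBP1. It was -0.55 for CSF1, -1.2 for ID2, 0.53 for RUNX1, 0.23 for CHD3, -0.40 for HDAC5 and 0.23 for HDAC7. For CSF1, HDAC5 and PHF21A the change with GFI1 was a smaller rise in floating cells, for RUNX1 it was a larger rise, for ID2 and ZNF217 a larger fall, and for CHD3 and HDAC7 a smaller fall. The calls of HMG20B, CTBP1, CHD3 and HDAC7 were lost in some settings, and those of the other 6 genes were kept in the 20 settings without a required fold change. With a required fold change of 2, ID2 alone of the 10 kept its call.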

How the results depend on the processing

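With a fold change of at least 2 required as well, 1 of the 9 genes was called in attached and 1 in floating GFI1 cells (GFI1 in both), and 0, 0 and 0 in the suspension comparisons and the interaction. Without the filter on low counts, 2 were called in suspended GFI1 cells instead of 4. With library size alone, 6 were called in floating GFI1 cells instead of 9. Leaving out 1 library at a time gave 7 to 8 calls in attached and 9 to 9 in floating GFI1 cells, 5 to 6 in suspended control, 2 to 4 in suspended GFI1 cells (2 without attached GFI1 replicate 2) and 1 to 2 in the interaction. The interaction count was 1 without attached control replicate 2 or 3, attached GFI1 replicate 2, floating control replicate 1 or floating GFI1 replicate 3. The values below that changed sign were past the threshold in none of these settings. RCOR2 in the interaction was -0.0012 with DESeq2, -0.0025 with RLE, -0.0092 with library size alone, and -0.11 to 0.13 with 1 library left out. RCOR1 in the interaction was -0.014 to 0.079 with 1 library left out. HDAC1 was 0.060 in attached cells with library size alone, and -0.018 to 0.062 in suspended GFI1 cells with 1 library left out. HMG20B in attached cells was 0.15 with library size alone (adjusted p = 0.0137 by edgeR), -0.012 without the filter and -0.027 to 0.035 with 1 library left out, and in suspended GFI1 cells -0.13 to 0.027. GFI1 was not tested with a minimum of 10 counts in each library. Same-numbered libraries did not deviate together (correlations of deviations from -0.07 to 0.05), and a fit with the number as a replicate block gave the same counts of calls, 7, 9, 6, 4 and 2, while among the named list genes CTBP1 lost its call in the interaction (adjusted p = 0.0543 by edgeR). Under the 2-fold requirement, the list of complex-tied genes had 0 calls instead of 7 in attached and 0 instead of 8 in floating GFI1 cells, the cofactors 1 instead of 10 and 1 instead of 11, the NuRD and SIN3 subunits 1 instead of 19 and 1 instead of 15, the deacetylases 3 instead of 6 in both, and the genes repressed in blood cells 6 instead of 12 in attached cells. Under the other settings, 1 of 126 list counts in each GFI1 comparison moved by over 1.5 times (SNAG-domain genes, 1 instead of 2 with a minimum of 10 counts), as did 4 of 126 in suspended control, 6 of 126 in suspended GFI1 cells and 29 of 120 in the interaction, and the cause was not tested.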
